A study of Homo sapiens with 9 samples.

Results

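The genes described here encode the proteasome, the barrel-shaped protease that degrades ubiquitin-tagged proteins, with its regulators and assembly chaperones. They were chosen by symbol and level: a protein-coding gene whose symbol begins with PSMA to PSMG followed by a number, with a mean of at least 1 CPM (the count of a gene scaled to the size of its library) in vehicle libraries. Of 50 genes with such a symbol, 48 met the level rule, out of 60675 genes in the table. All 48 passed the low-count filter and were among the 18356 genes tested. PSMA8 had 0 counts in the 9 libraries and PSMB11 had 4, so these testis and thymus subunits fell outside the rule, while the members nearest the limit were PSMB9 (14.0 CPM in vehicle libraries by library total), PSMB10 (15.5 CPM) and PSMC3IP (19.1 CPM). 46 members are proteasome subunits, regulators or assembly chaperones. PSMC3IP, a recombination factor named for binding PSMC3, and PSME3IP1, named for binding PSME3, share the letters but are not part of the protease.

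The cells were SW1783, a human astrocytoma line, grown in L-15 medium with 10% serum and treated for 24 h. The treated groups received ethanol extracts (70% ethanol) of Poria Cocos, a fungus, or of Atractylodis Rhizoma, a plant rhizome, at 20, 100 or 500 µg/mL, with 1 library for each extract and dose. The vehicle libraries (3) received DMSO, given as 0.1% in the sample labels and 2% in the series design; no percentage is given for the treated libraries. All treated libraries are numbered replicate 2 in the labels. All titles name BatchD, but the sample names of vehicle and treated libraries carry different prefixes. What the prefixes stand for is not given. Any difference between these sets of samples coincides with treatment and cannot be told apart from it. Because no treated condition was repeated, the tests set the 6 treated libraries together against the 3 vehicle libraries, or fitted a slope over dose. The labels do not say that libraries came from separate cultures, so the p-values speak to the scatter among these libraries, and that scatter may be technical alone.

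The proteasome core is a stack of rings: outer rings of alpha subunits, which form the gate, and inner rings of beta subunits, which carry the active sites. A regulatory cap of ATPases and non-ATPase subunits binds, unfolds and deubiquitinates substrates, and other activators (the PSME genes) or an inhibitor (PSMF1) can bind the core in place of the cap. Interferon-inducible beta subunits replace the constitutive catalytic ones in the immunoproteasome, which favours peptides for antigen presentation. The genes are known to be raised as a group by the transcription factor NRF1 (NFE2L1) when proteasome activity is short.

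The libraries held 42499213 to 48905536 counts (treated) and 40269665 to 43805624 counts (vehicle). PSMB9, the member nearest the limit of the level rule, had 6199 counts over the 9 libraries. The part of counting error in the scatter of such low members was not estimated. Mitochondrial genes took 5.38% to 6.97% of counts in treated libraries and 5.93% to 6.46% in vehicle libraries. Of 9 astrocyte and astrocytoma markers, 5 (VIM, CD44, SOX9, SLC1A3 and NES) were detected at 1 CPM or more, while the defining markers GFAP, S100B, AQP4 and ALDH1L1 were at or below 0.178 CPM in every library. Summed astrocyte and astrocytoma marker level ran from 7420 to 8130 CPM in treated and from 8610 to 9010 CPM in vehicle libraries. Epithelial markers (2 of 4 detected, mostly KRT18) summed to 127 to 230 CPM in treated and 239 to 246 CPM in vehicle libraries, with EPCAM and CDH1 at or below 0.0908 CPM. Myeloid markers (2 of 4 detected, mostly CD68) summed to 131 to 161 CPM in treated and 173 to 180 CPM in vehicle libraries, with AIF1 at or below 0.0255 CPM. Neuronal (1 of 4 detected), oligodendrocyte (1 of 4) and endothelial (1 of 4) markers summed to 20.4 to 26.7, 5.80 to 8.02 and 32.1 to 40.0 CPM in treated libraries, against 21.3 to 22.0, 5.71 to 6.06 and 28.9 to 31.0 CPM in vehicle libraries. The part of these differences in the results below was not tested. In such bulk samples, fewer cells of a kind and less RNA per cell cannot be told apart.

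Nearly all members were well expressed in vehicle libraries, and their order is given per kilobase of the longest annotated transcript. PSMD2, the large scaffold subunit of the cap, had the highest level, at 266 ± 4.18 CPM per kb (SD, n = 3). It was followed by PSMB3 at 215 ± 4.98, PSMB7 at 190 ± 5.21 and PSMA7 at 175 ± 8.15 CPM per kb. The intervals of 1 SD of these 4 genes did not meet. PSMB6 (144 ± 2.18) and PSMD8 (139 ± 4.87) came next, and their intervals of 1 SD overlapped. The median over members was 42.4 CPM per kb. Lowest were PSMB10, an immunoproteasome subunit, at 13.1 ± 0.624, the cap chaperone PSMD9 at 11.1 ± 0.134, the immunoproteasome subunit PSMB9 at 5.41 ± 0.16 and the core chaperone PSMG4 at 4.93 ± 0.368 CPM per kb. By role, the median was 89.3 CPM per kb for the constitutive beta ring, 64.8 for the ATPases, 38.7 for the alpha ring and 13.1 for the immunoproteasome subunits. This order depends on the length used, and the longest annotated transcript need not be the one expressed. That length was 773 nt for PSMB3 and 4730 nt for PSMA6. Without division by length PSMB3 stood at 166.3 CPM and PSMA6 at 183.2 CPM, against 215 and 38.7 CPM per kb. The vehicle libraries agreed closely on each member, with a median coefficient of variation of 2.32%. Replicate 3 lay below the vehicle mean for 38 members and replicate 2 above it for 34.

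Treated libraries held more mRNA of 4 alpha subunits, of the immunoproteasome subunits PSMB8 and PSMB9 and of 6 other members. They held less of 7 others, and the changes were small. In the comparison of the 6 treated with the 3 vehicle libraries, 12 members rose and 7 fell, which is 39.6% of the 48, against 25.3% of all genes tested (edgeR quasi-likelihood test, adjusted p under the threshold of 0.05). Rises took 25.0% of members against 12.0% of all genes tested, and falls took 14.6% against 13.3%. No member lay below 14.0 CPM in vehicle libraries by library total, while the filter let in genes with counts near 10. The shares of all genes tested, here and for the slopes below, thus come from genes of unlike level. The share called among genes of like level was not counted. The folds of the members ran from 0.841 to 1.22. Their median log2 change was 0.025, against 0.014 for all genes tested. In 9 members all 6 treated libraries lay above all 3 vehicle libraries (18.8%, against 12.4% of all genes tested), in 10 all lay below (20.8%, against 13.7%), and in the other 29 the groups overlapped. Summed over all members, the level was 6482 to 6772 CPM in treated and 6496 to 6640 CPM in vehicle libraries, a change of the mean of −0.101%.

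**Figure D1:**
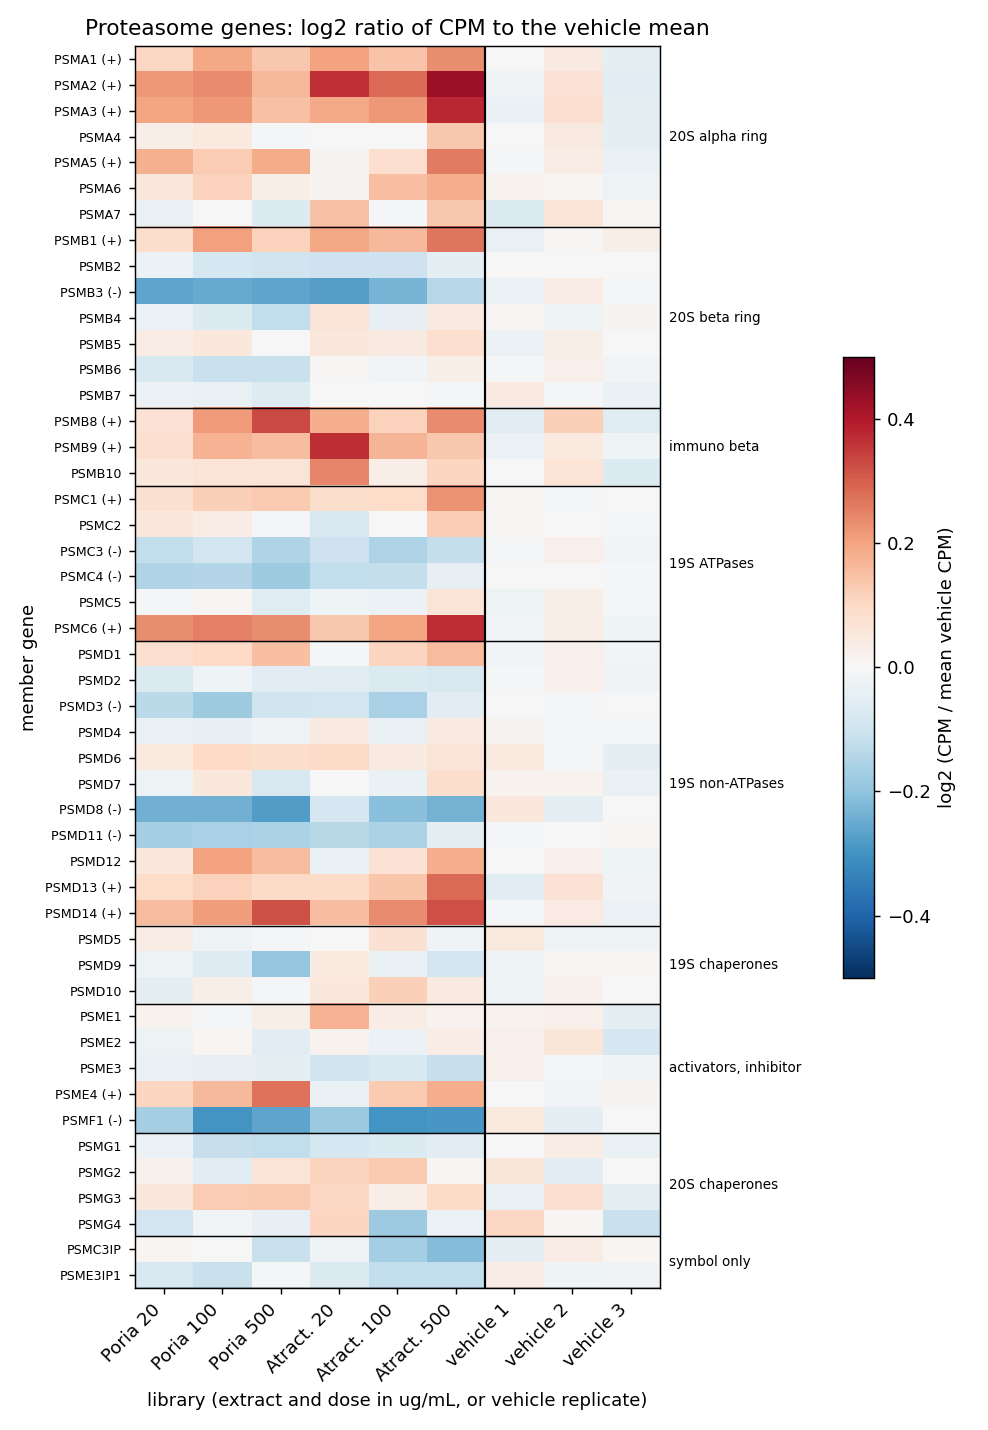
Heat map of the 48 members by library: each cell is the log2 ratio of CPM to the mean of the 3 vehicle libraries, with treated libraries at left (dose in µg/mL) and vehicle libraries at right, and members grouped by role. A plus or minus sign beside a symbol marks the 12 members that rose and the 7 that fell in treated against vehicle libraries; the row of PSMA2 is red and the row of PSMF1 blue in all 6 treated libraries.

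These counts depend on how libraries are scaled. The TMM factors were 1.001 to 1.028 in treated and 0.9635 to 0.9754 in vehicle libraries. With library totals alone, 20 members were higher and 3 lower, so 87.0% of the called members were higher, against 63.2% with TMM, and the summed level changed by 4.64%. Over all genes tested the share of calls that were higher moved the same way, to 74.1% with library totals, against 47.4% with TMM. No called member changed direction.

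Promoters are shown because members moved in opposite directions in the same libraries. RefSeq windows of 250 bases before to 50 after the start (GRCh38.p14) matched 42 of the 48 members, and letters were searched on both strands. TGACNNNGC, the core of the antioxidant response element used by NRF1 and NRF2, was present in 15 of the 42 members (35.7%) and in 16.1% of 27305 genes. CCGGAAG, an ETS site, was in 16 (38.1%, against 12.2% of all genes), and CCAAT in 21 of 42 (against 39.7% of all genes). Among the 11 matched members that rose, 2 held TGACNNNGC, 5 CCGGAAG and 5 CCAAT, and among the 7 that fell, 3, 2 and 4. A match is a description of letters and not of binding. Stretches of 80 bases upstream of the start are shown for members of either direction that lie outside annotated exons (PSMF1 has 4 bases in an exon of a long noncoding RNA), 5′ to 3′ on the gene's strand, with the motif in capitals. The rising members shown are PSMA5 (chr1:109426460-109426539, minus strand), PSMB9 (chr6:32854009-32854088, plus strand) and PSMC6 (chr14:52707057-52707136, plus strand). The falling ones are PSMC3 (chr11:47426511-47426590, minus strand) and PSMF1 (chr20:1118447-1118526, plus strand).
PSMA5: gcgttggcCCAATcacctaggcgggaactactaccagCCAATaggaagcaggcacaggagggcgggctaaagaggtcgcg
PSMB9: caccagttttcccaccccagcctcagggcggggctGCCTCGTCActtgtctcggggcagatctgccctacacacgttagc
PSMC6: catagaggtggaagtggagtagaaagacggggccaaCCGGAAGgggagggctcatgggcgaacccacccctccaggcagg
PSMC3: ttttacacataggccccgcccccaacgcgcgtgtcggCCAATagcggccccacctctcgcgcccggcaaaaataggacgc
PSMF1: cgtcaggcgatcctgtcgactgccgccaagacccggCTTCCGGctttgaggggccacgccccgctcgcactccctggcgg
PSMA5 holds CCAAT at 2 places and PSMC3 at 1, although PSMA5 rose and PSMC3 fell. The PSMB9 capitals are TGACNNNGC read on the other strand. PSMC6, which rose, and PSMF1, which fell, both hold the ETS letters, in PSMF1 on the other strand. The PSMB9 and PSMF1 stretches lie before RefSeq starts that are inside the genes as GENCODE 29 places them (chr6:32844136-32859585 and chr20:1113263-1189415).

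Of the 7 alpha ring members, 4 rose and 0 fell, and all 7 had a positive log2 change, with a median of 0.143. Their summed level was 970.4 to 1088 CPM in treated and 907.6 to 958.9 CPM in vehicle libraries, 8.91% higher on average. PSMA2 (ENSG00000106588, chr7:42916857-42932223, GRCh38, minus strand) had the largest rise of any member: 111.3, 113.0 and 107.5 CPM with Poria at 20, 100 and 500 µg/mL and 123.3, 116.7 and 128.7 CPM with Atractylodis, against 94.6, 100.6 and 92.3 CPM in vehicle libraries. Every treated library exceeded every vehicle library, and the log2 change was 0.28 ± 0.05 (SE, 9 libraries, edgeR adjusted p = 0.00073). PSMA3 had 113.8, 115.3 and 109.6 CPM with Poria and 113.0, 115.2 and 128.7 CPM with Atractylodis, against 96.8, 104.7 and 96.1 CPM in vehicle libraries. Again the groups did not overlap, and the log2 change was 0.22 ± 0.05 (edgeR adjusted p = 0.0018). PSMA1 had 134.5 to 147.3 CPM in treated libraries, against 121.6 to 129.3 CPM in vehicle libraries, without overlap (log2 change 0.17 ± 0.04, edgeR adjusted p = 0.0032). PSMA5 had 99.3 to 117.8 CPM in treated libraries, against 96.1 to 101.1 CPM in vehicle libraries, with Atractylodis at 20 µg/mL inside the vehicle range (0.14 ± 0.05, edgeR adjusted p = 0.028). The other alpha subunits PSMA4, PSMA6 and PSMA7 had log2 changes of 0.04, 0.09 and 0.03 that did not pass the test.

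PSMA3 overlaps the antisense gene PSMA3-AS1 (32.0 CPM), and PSMA2 overlaps MRPL32 (52.4 CPM) on the opposite strand and the gene ENSG00000256646 (20.2 CPM) on its own strand. The kit kept the strand, but the use of strand in counting is not given in the sources used here, so the division of reads between such neighbours is uncertain.

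Of the 7 constitutive beta subunits 1 rose and 1 fell. PSMB1, a structural subunit, rose: 136.0, 147.5 and 138.7 CPM with Poria and 146.4, 143.2 and 153.9 CPM with Atractylodis, against 124.7, 128.3 and 130.6 CPM in vehicle libraries (log2 change 0.17 ± 0.04, edgeR adjusted p = 0.004). PSMB3, also without an active site, fell: 138.4, 139.7 and 138.5 CPM with Poria and 137.4, 141.6 and 150.6 CPM with Atractylodis, against 162.8, 170.5 and 165.7 CPM in vehicle libraries (−0.24 ± 0.04, edgeR adjusted p = 0.00016). In both genes the treated and vehicle libraries did not overlap. The catalytic subunits did not pass the test. PSMB5, the chymotrypsin-like subunit, averaged 119.1 ± 2.33 CPM in treated libraries and 115.5 ± 2.30 CPM in vehicle libraries (SD, n = 6 and 3). PSMB6, the caspase-like subunit, averaged 121.8 ± 5.13 CPM in treated and 125.8 ± 1.90 CPM in vehicle libraries. PSMB7, the trypsin-like subunit, averaged 183.7 ± 3.23 CPM in treated and 186.7 ± 5.10 CPM in vehicle libraries. For these 3 genes the 95% interval of the log2 change (1.96 SE) ran from −0.12 to 0.11 at its widest. PSMB2 was lower in each of the 6 treated libraries, at 204.7 to 215.6 CPM against 219.8 to 219.9 CPM in vehicle libraries, yet its log2 change of −0.08 did not pass the test (edgeR adjusted p = 0.096). PSMB4 had a log2 change of −0.02.

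Of the 3 immunoproteasome subunits with counts, 2 rose, and the summed level was 69.2 to 77.8 CPM in treated and 63.5 to 70.3 CPM in vehicle libraries. PSMB8, which replaces PSMB5, had 37.3, 41.2 and 44.6 CPM with Poria and 40.2, 38.5 and 41.8 CPM with Atractylodis, against 34.1, 38.6 and 34.0 CPM in vehicle libraries. Vehicle replicate 2 lay within the treated range, and the log2 change was 0.19 ± 0.06 (edgeR adjusted p = 0.019). PSMB9, which replaces PSMB6, had 15.4, 16.3 and 16.1 CPM with Poria and 18.7, 16.3 and 15.9 CPM with Atractylodis, against 14.2, 15.0 and 14.3 CPM in vehicle libraries. All treated libraries were above all vehicle libraries, and the log2 change was 0.18 ± 0.06 (edgeR adjusted p = 0.032). PSMB10, which replaces PSMB7, averaged 17.0 ± 0.937 CPM in treated and 16.0 ± 0.761 CPM in vehicle libraries, and its log2 change of 0.09 ± 0.06 did not pass the test. PSMB8 and PSMB9 lie side by side and overlap each other, PSMB8-AS1 (6.98 CPM) and, for PSMB9, TAP1 (73.7 CPM), with the same uncertainty over strand.

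The share of immunoproteasome subunit can be read as a ratio to its constitutive counterpart within a library, which no library scaling changes. PSMB9 over PSMB6 was 0.124 to 0.148 in treated and 0.114 to 0.117 in vehicle libraries, without overlap. PSMB8 over PSMB5 was 0.315 to 0.387 in treated and 0.295 to 0.327 in vehicle libraries, and PSMB10 over PSMB7 was 0.0873 to 0.101 in treated and 0.0829 to 0.0901 in vehicle libraries, both with overlap. The ratios were not tested and were not corrected for GC content, which was 46.9% in PSMB9 and 54.5% in PSMB6. With the GC and length correction the log2 change of PSMB6 moved from −0.05 to 0.05, while that of PSMB9 stayed at 0.18. The part of GC content in the separation of this ratio was not tested. Per kilobase, the vehicle mean of PSMB8 was 0.168 of that of PSMB5, that of PSMB9 was 0.0375 of that of PSMB6 and that of PSMB10 was 0.0688 of that of PSMB7, so the constitutive subunits had the higher transcript level throughout.

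**Figure D2:**
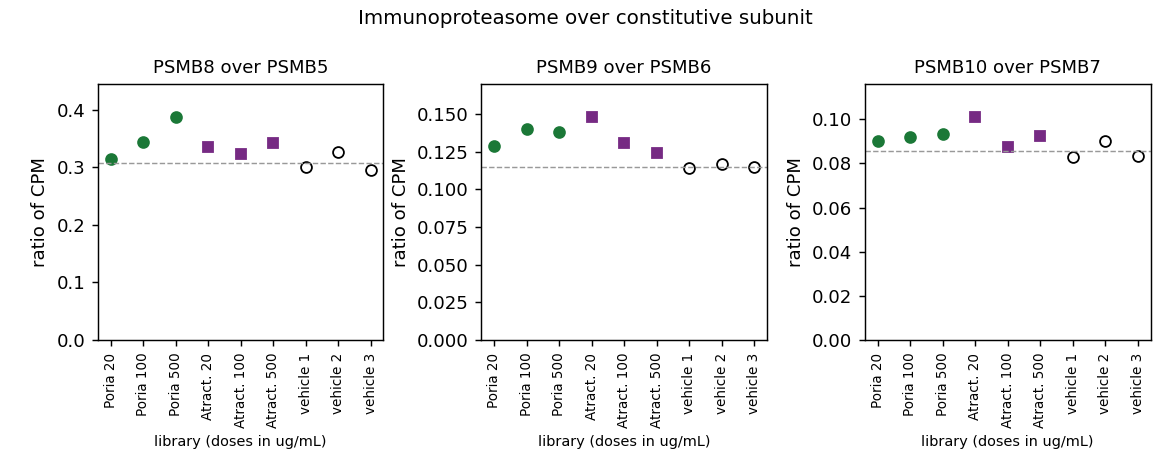
Ratio of the CPM of each immunoproteasome subunit to that of the constitutive subunit it replaces, by library; points are single libraries, treated at left (Poria circles, Atractylodis squares, dose in µg/mL) and vehicle as open circles at right, and the dashed line is the vehicle mean. PSMB9 over PSMB6 lies at 0.124 to 0.148 in the 6 treated libraries, above the 0.114 to 0.117 of the vehicle libraries.

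Among the 6 cap ATPases, which unfold substrates and open the gate, 2 rose and 2 fell. PSMC6 had 90.4, 91.8 and 90.5 CPM with Poria and 84.6, 88.3 and 99.4 CPM with Atractylodis, against 76.2, 78.9 and 75.9 CPM in vehicle libraries. No treated library reached down to the vehicle range, and the log2 change was 0.24 ± 0.04 (edgeR adjusted p = 0.00067). PSMC1 averaged 193.7 ± 7.37 CPM in treated and 177.9 ± 0.655 CPM in vehicle libraries (0.12 ± 0.04, edgeR adjusted p = 0.022). A pseudogene of it, PSMC1P1, was listed at 14.3 CPM in treated and 15.8 CPM in vehicle libraries, so some reads of PSMC1 may have been assigned to either. PSMC3 fell, with 133.9 ± 2.33 CPM in treated and 145.9 ± 2.09 CPM in vehicle libraries (−0.12 ± 0.03, edgeR adjusted p = 0.0091). PSMC4 fell, with 117.4 ± 3.93 CPM in treated and 128.1 ± 0.427 CPM in vehicle libraries (−0.13 ± 0.04, edgeR adjusted p = 0.014). In each of these 4 genes the groups did not overlap. PSMC2 and PSMC5 had log2 changes of 0.02 and −0.01.

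The 11 non-ATPase subunits of the cap also split, with 2 that rose and 3 that fell. PSMD14 (ENSG00000115233, chr2:161308038-161411717, plus strand), the enzyme that cuts ubiquitin chains off the substrate, had 89.2, 92.4 and 99.5 CPM with Poria and 88.9, 94.0 and 100.0 CPM with Atractylodis at 20, 100 and 500 µg/mL, against 79.3, 82.2 and 78.2 CPM in vehicle libraries. Within each extract the 3 libraries stood in the order of dose, all above vehicle, and the log2 change was 0.24 ± 0.04 (edgeR adjusted p = 0.00068). PSMD13, a lid subunit, averaged 91.5 ± 4.89 CPM in treated and 83.3 ± 3.94 CPM in vehicle libraries, without overlap (0.14 ± 0.05, edgeR adjusted p = 0.034). PSMD8, a lid subunit, had 185.8, 185.7 and 181.0 CPM with Poria and 207.2, 190.0 and 186.4 CPM with Atractylodis, against 227.7, 212.3 and 219.3 CPM in vehicle libraries (−0.21 ± 0.04, edgeR adjusted p = 0.0011). The treated libraries all lay below vehicle, and Atractylodis at 20 µg/mL came closest. PSMD11, also of the lid, averaged 144.1 ± 4.84 CPM in treated and 158.4 ± 0.694 CPM in vehicle libraries (−0.14 ± 0.04, edgeR adjusted p = 0.0085). PSMD3, also of the lid, averaged 252.6 ± 8.20 CPM in treated and 274.5 ± 0.632 CPM in vehicle libraries (−0.12 ± 0.04, edgeR adjusted p = 0.02). Neither gene showed overlap between the groups. The ubiquitin receptor PSMD4 and the scaffold PSMD2 had log2 changes of −0.01 and −0.06. The other 4 (PSMD1, PSMD6, PSMD7 and PSMD12) had changes between −0.00 and 0.11, and none of these 6 passed the test. PSMD2 was still lower in every treated library, at 866.1 to 903.1 CPM against 906.5 to 933.4 CPM in vehicle libraries.

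Of the 5 members that bind the core in place of the cap, 1 rose and 1 fell. PSMF1 (ENSG00000125818, plus strand), which encodes an inhibitor of the core in vitro, had the largest fall of any member: 138.7, 126.5 and 129.6 CPM with Poria and 136.9, 126.4 and 127.2 CPM with Atractylodis, against 161.0, 150.5 and 155.7 CPM in vehicle libraries. The treated libraries all lay below the vehicle libraries, and the log2 change was −0.25 ± 0.04 (edgeR adjusted p = 0.00021). PSME4, a large activator linked to acetylated histones, had 136.0, 141.4 and 152.4 CPM with Poria and 123.4, 138.2 and 143.4 CPM with Atractylodis, against 126.1, 125.3 and 127.7 CPM in vehicle libraries. Atractylodis at 20 µg/mL lay below vehicle and the other treated libraries above it (0.14 ± 0.05, edgeR adjusted p = 0.047). The interferon-inducible activators PSME1 and PSME2, known to work with the immunoproteasome, did not pass the test. PSME1 averaged 100.5 ± 4.70 CPM in treated and 97.4 ± 2.54 CPM in vehicle libraries, and PSME2 averaged 152.2 ± 3.69 CPM in treated and 153.2 ± 7.99 CPM in vehicle libraries. The nuclear activator PSME3 had a log2 change of −0.07 that did not pass (edgeR adjusted p = 0.16). Its treated libraries (203.8 to 216.0 CPM) all lay below its vehicle libraries (218.3 to 224.5 CPM).

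No assembly factor passed the test. The cap chaperones PSMD5, PSMD9 and PSMD10 had log2 changes of 0.01, −0.06 and 0.03. The core chaperones PSMG1, PSMG2, PSMG3 and PSMG4 had changes of −0.08, 0.05, 0.09 and −0.04. PSMC3IP and PSME3IP1, which are not proteasome subunits, both had −0.08, and neither passed.

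**Figure D3:**
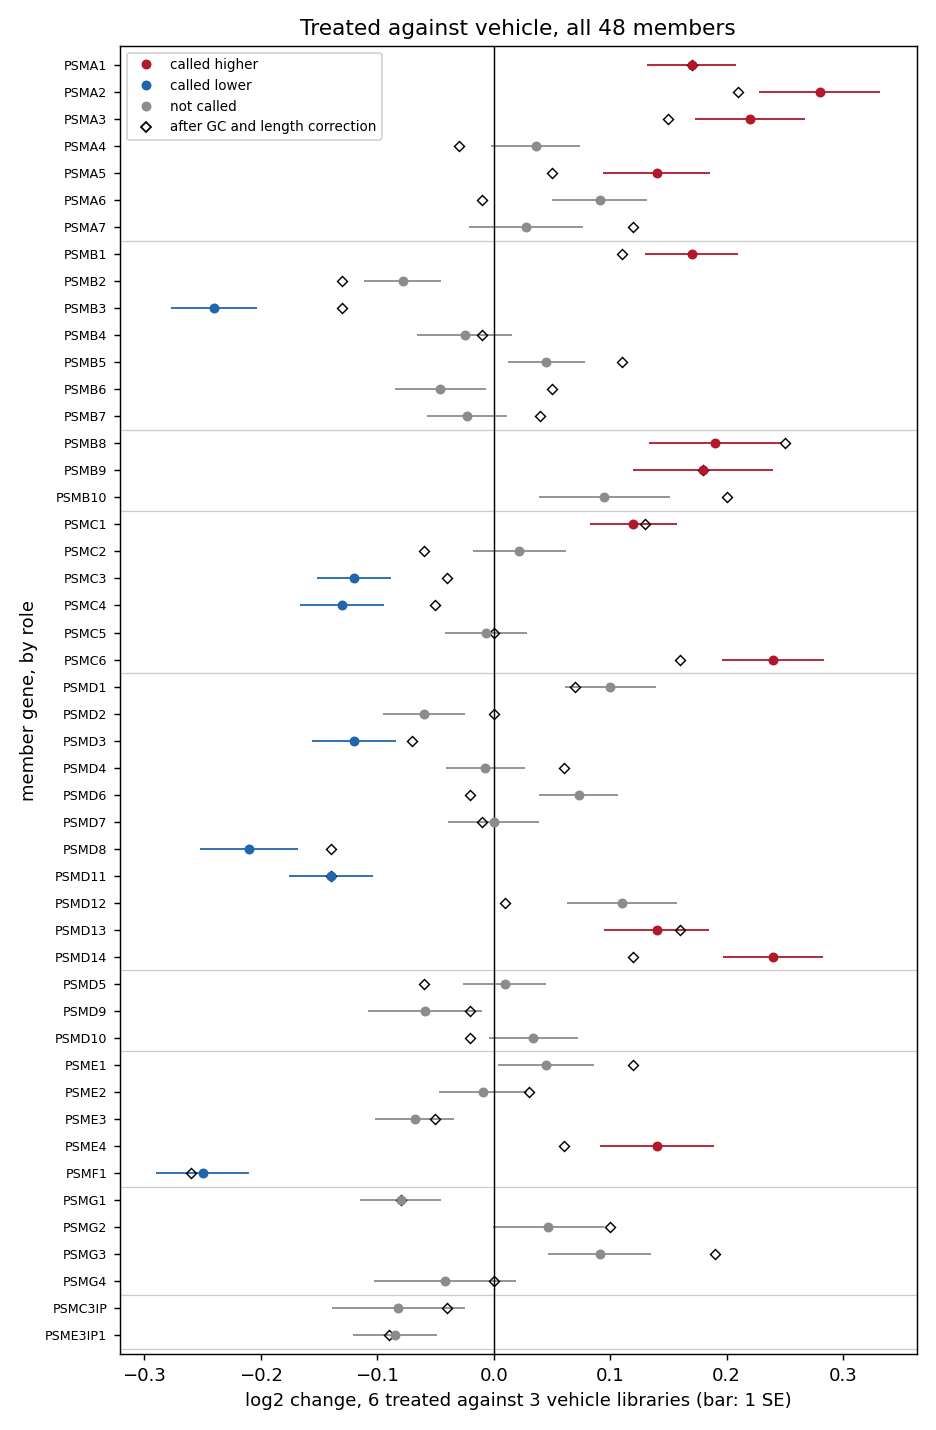
Log2 change of each of the 48 members in the 6 treated against the 3 vehicle libraries, by role from the alpha ring at the top: filled points are the edgeR estimates with bars of 1 SE, red for members that rose and blue for members that fell, and open diamonds are the estimates after correction for GC content and transcript length. PSMF1 (−0.25) and PSMB3 (−0.24) lie furthest to the left and PSMA2 (0.28) furthest to the right; the diamonds of PSMC3 and PSMA5 lie nearer to 0 than their points.

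The members that changed also differed in base composition. The median GC content of the longest transcript was 41.1% for the 12 members that rose and 53.6% for the 7 that fell. Of the 16 members with less than 45% GC, 7 rose and 0 fell, and of the 32 others 5 rose and 7 fell. Across the 48 members Spearman's rho between GC content and log2 change was −0.49, and across 18214 genes with a GC value it was −0.30; genes share libraries and are not independent replicates. PSMD14 had the lowest GC content of any member, 32.0%. All genes tested with a GC content of 30 to 34% had a median log2 change of 0.14. The alpha ring had a median GC content of 40.7%, against 49.9% in the constitutive beta ring.

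After a correction for GC content and length, 15 members rose and 5 fell (41.7% of the 48, against 21.5% of all genes tested, of which 9.72% rose and 11.8% fell), and 14 kept their call. PSMF1 (−0.26), PSMB8 (0.25), PSMB9 (0.18), PSMA1 (0.17), PSMD13 (0.16), PSMC1 (0.13) and PSMD11 (−0.14) kept their call, while PSMA2 (0.21), PSMD14 (0.12), PSMC6 (0.16), PSMA3 (0.15), PSMD8 (−0.14), PSMB1 (0.11) and PSMB3 (−0.13) kept it with smaller log2 changes. The calls of PSMC3, PSMC4, PSMD3, PSMA5 and PSME4 ended, with edgeR adjusted p from 0.15 to 0.43. PSMB10 (0.20), PSMG3 (0.19), PSMA7 (0.12), PSME1 (0.12) and PSMB5 (0.11) then passed as higher and PSMB2 (−0.13) as lower, so that all 3 immunoproteasome subunits were called higher. In the alpha ring PSMA4 (−0.03) and PSMA6 (−0.01) then had a negative sign.

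**Figure D4:**
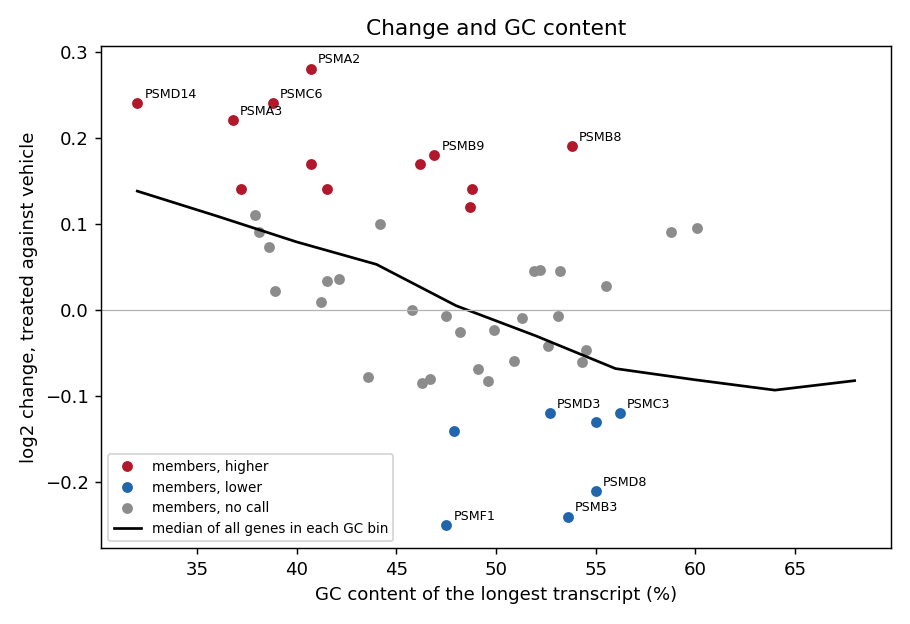
Log2 change in treated against vehicle libraries plotted against the GC content of the longest transcript (percent): points are the 48 members, coloured by call, and the line joins the median log2 change of all genes in bins of GC content. The line runs from 0.14 at 30 to 34% GC down to −0.093 at 62 to 66%, and the members that rose lie above it while those that fell lie below it.

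9 of the 19 calls held in each of 15 alternative analyses: PSMA1, PSMA2, PSMA3, PSMB1, PSMC6 and PSMD14, which rose, and PSMB3, PSMD8 and PSMF1, which fell. Their highest adjusted p under any alternative was 0.043, for PSMB1. The other 10 depended on single choices. PSMA5, PSMB9, PSMC1, PSMD3 and PSME4 lost the call when any of the 3 vehicle libraries was left out, PSMB8 and PSMD13 without vehicle replicate 1 or 3, PSMC4 without vehicle replicate 1 and PSMC3 without vehicle replicate 2. PSMA5 and PSME4 also lost it without Poria at 20 µg/mL, PSMB9 and PSME4 without Poria at 100 µg/mL, PSME4 without Poria at 500 µg/mL, PSMD13 and PSME4 without Atractylodis at 100 µg/mL and PSME4 without Atractylodis at 500 µg/mL. The adjusted p of these calls across alternatives reached 0.094 for PSMC1, 0.12 for PSMB8, 0.14 for PSMB9, 0.21 for PSMD13, 0.29 for PSMC4, 0.32 for PSMD3, 0.34 for PSMC3, 0.35 for PSME4 and 0.43 for PSMA5. With library totals alone PSMD11 lost its call (adjusted p = 0.18), as did PSMC3, PSMC4 and PSMD3, and PSME4 lost it with RLE scaling.

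Over dose, the Poria slope called 12 members (25.0%, against 20.8% of all genes tested), with 8 higher and 4 lower (all genes tested: 9.16% higher and 11.6% lower). A slope is the log2 change for each step from vehicle through 20 and 100 to 500 µg/mL, neighbouring doses being 5-fold apart, and is given ± SE. The steepest rises were PSMD14 at 0.10 ± 0.02 (edgeR adjusted p = 0.00047), PSMB8 at 0.10 ± 0.02 (0.0046), PSME4 at 0.09 ± 0.02 (0.00085) and PSMC6 at 0.09 ± 0.02 (0.0041). PSMA5, PSMC1, PSMD1 and PSMD12 rose by 0.05 to 0.07 per step. PSMF1 at −0.10 ± 0.02 (edgeR adjusted p = 0.0026), PSMD8 at −0.10 ± 0.02 (0.0018), PSMC4 at −0.06 ± 0.02 (0.037) and the chaperone PSMD9 at −0.06 ± 0.02 (0.038) fell. PSMD9 stood at 33.2, 32.3 and 29.6 CPM with Poria at 20, 100 and 500 µg/mL, against 33.3, 34.0 and 34.0 CPM in vehicle libraries, so that the 500 µg/mL library was the low one. With the correction for GC content and length 10 members were called (all genes tested: 15.4%), 7 of the 12 among them. The calls of PSMA5 (0.03), PSMC4 (−0.02), PSMD1 (0.04), PSMD9 (−0.05) and PSMD12 (0.03) ended, with edgeR adjusted p from 0.068 to 0.56. PSMA1 (0.06) and PSMG3 (0.10) then passed as higher and PSMB2 (−0.05) as lower, with edgeR adjusted p from 0.0038 to 0.041.

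The Atractylodis slope called 17 members (35.4%, against 19% of all genes tested), with 14 higher and 3 lower (all genes tested: 8.49% higher and 10.5% lower). Its steepest rises were PSMA2 at 0.13 ± 0.03 (edgeR adjusted p = 0.011), PSMA3 at 0.11 ± 0.02 (0.0026), PSMD14 at 0.11 ± 0.02 (0.00055) and PSMC6 at 0.11 ± 0.02 (0.002). In the alpha ring 5 of 7 rose: PSMA1, PSMA2, PSMA3, PSMA5 and PSMA6. PSMB1, PSMB8, PSMC1, PSMD1, PSMD12, PSMD13 and PSME4 also rose, by 0.05 to 0.08 per step. PSMF1 at −0.10 ± 0.02 (edgeR adjusted p = 0.0022), PSMD8 at −0.08 ± 0.02 (0.013) and PSMC3IP at −0.08 ± 0.02 (0.027) fell. PSMC3IP stood at 19.4, 17.5 and 17.0 CPM with Atractylodis at 20, 100 and 500 µg/mL, against 19.1, 20.2 and 19.8 CPM in vehicle libraries. With the GC and length correction 14 members were called (all genes tested: 14.4%), 10 of the 17 among them. The calls of PSMA5 (0.03), PSMA6 (0.02), PSMD1 (0.04), PSMD8 (−0.05), PSMD12 (0.01), PSME4 (0.03) and PSMC3IP (−0.07) ended, with edgeR adjusted p from 0.056 to 0.70. In the alpha ring PSMA1, PSMA2 and PSMA3 kept their call. PSMA7 (0.07), PSMB5 (0.04), PSMB6 (0.05) and PSMG3 (0.06) then passed as higher, with edgeR adjusted p from 0.014 to 0.047. No call of either slope held under each of the 17 alternatives.

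**Figure D5:**
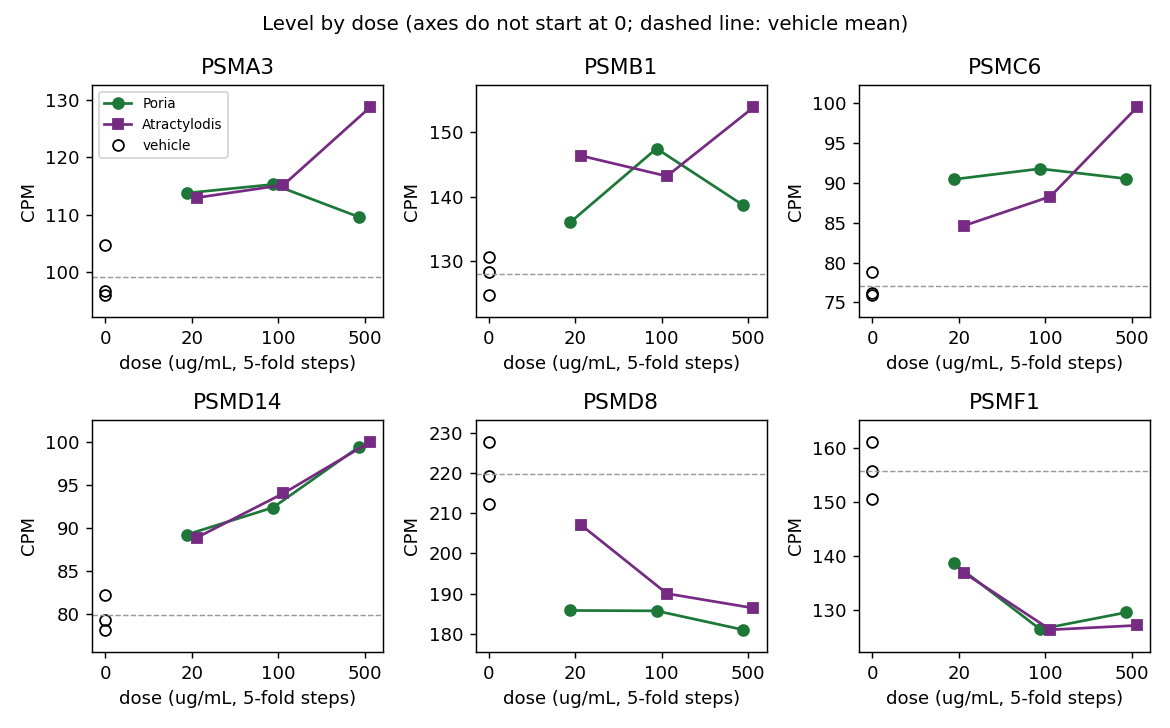
CPM of PSMA3, PSMB1, PSMC6, PSMD14, PSMD8 and PSMF1 against dose in steps of 5-fold (µg/mL), with single libraries for Poria (green circles) and Atractylodis (purple squares), open circles for the 3 vehicle libraries at 0 and a dashed line at their mean; the CPM axes do not start at 0. PSMD14 climbs with each dose of both extracts to 99.5 and 100.0 CPM at 500 µg/mL, while PSMF1 is already at 138.7 and 136.9 CPM at 20 µg/mL.

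No difference between the extracts passed the test in any member with the low-count filter. Of the members, 8 rose in both slopes, 2 fell in both and 0 went opposite ways. Both slopes share the vehicle libraries, and the share of all genes tested that did the same was not counted. These counts therefore show nothing particular to the members. The difference of the slopes (Poria minus Atractylodis) called 0 members, against 1.16% of all genes tested, with the smallest edgeR adjusted p at 0.19; DESeq2 also called 0. At an unadjusted p under 0.05 there were 5 members (10.4%), against 13.1% of all genes tested, and each of the 5 (PSMA2, PSMA7, PSMB4, PSMB6 and PSMD13) had the more positive slope with Atractylodis. The difference was at most 0.07 in size per dose step, and the 95% intervals (1.96 SE) reached from −0.14 to 0.10. Without the low-count filter PSMA2 was called for the difference (−0.07).

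Fewer members passed when vehicle did not enter the slope. Within the 3 treated doses, Poria called 0 members and Atractylodis 5: PSMA5, PSMC2, PSMC6, PSMD12 and PSME4, all higher. Of all genes tested 2.45% were called within the Poria doses and 4.04% within the Atractylodis doses. With the GC correction as well, Poria called PSMB8 alone and Atractylodis PSMB3 alone, both with a positive slope, although PSMB3 was lower in treated than in vehicle libraries (all genes tested: 3.39% for Poria and 2.66% for Atractylodis). PSMF1 had slopes of −0.049 (Poria) and −0.053 (Atractylodis) within the treated doses, with adjusted p of 0.47 and 0.37. PSMD14 had 0.079 and 0.085 (adjusted p = 0.15 and 0.09). With dose entered in µg/mL no member was called for either extract (all genes tested: 125 for Poria and 67 for Atractylodis). A single library also weighed on the Atractylodis slope: without Atractylodis at 500 µg/mL only PSMD14 and PSMF1 were called. Over all genes tested 1035 were then called, against 3495 with that library.

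Genes that work with the proteasome, listed by function, were taken as lists that were chosen with results known, and their counts stand beside 25.3% of all genes called in treated against vehicle libraries. The median log2 change was 0.021 for the partners, −0.025 for the NRF1 and NRF2 regulators, 0.22 for the NRF2 targets, −0.10 for the ubiquitin and shuttle genes and −0.037 for the antigen presentation genes, against 0.014 for all genes tested. Of 10 partners outside the symbol rule 0 rose and 2 fell in treated against vehicle libraries. ADRM1, a ubiquitin receptor of the cap, had 125.3, 120.9 and 118.3 CPM with Poria and 139.6, 122.2 and 124.2 CPM with Atractylodis, against 157.6, 153.2 and 153.9 CPM in vehicle libraries (log2 change −0.31 ± 0.04, edgeR adjusted p = 9e-05). Without the GC correction its fall was larger than that of any member, and it fell with both slopes (−0.14 ± 0.02 for Poria and −0.11 ± 0.02 for Atractylodis). With that correction ADRM1 fell by less (−0.20, edgeR adjusted p = 0.00022), and the member PSMF1 (−0.26) then had the larger fall. Both ADRM1 slopes kept their call (−0.08 and −0.07). POMP, the maturation chaperone of the core, had a log2 change of 0.10 ± 0.05 that did not pass the test, and its slope passed with Atractylodis (0.07 ± 0.02, edgeR adjusted p = 0.016). SEM1, a small lid subunit, likewise passed with Atractylodis (0.07 ± 0.02, edgeR adjusted p = 0.0091). With the GC correction both calls ended (POMP 0.03, adjusted p = 0.23, and SEM1 0.03, adjusted p = 0.24).

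Among 10 regulators of the NRF1 and NRF2 pathways, 1 rose and 1 fell. NFE2L1, the factor that raises proteasome genes, had 473.9, 462.6 and 462.4 CPM with Poria and 466.9, 464.8 and 479.6 CPM with Atractylodis, against 493.7, 490.8 and 499.4 CPM in vehicle libraries. All treated libraries were lower, but the log2 change of −0.08 did not pass the test (edgeR adjusted p = 0.095). DDI2, the protease that activates NRF1, rose by 0.14 ± 0.04 (edgeR adjusted p = 0.023) and ended its call with the GC correction (0.05, adjusted p = 0.3). VCP, the segregase that extracts NRF1 from the endoplasmic reticulum, had a change of 0.09 ± 0.04 that did not pass. It rose with both slopes (0.05 ± 0.02 each). With the GC correction VCP passed as higher (0.12, edgeR adjusted p = 0.038), and both slopes kept their call at 0.07. MAFF, a small MAF partner of these factors, had 15.7, 17.4 and 18.2 CPM with Poria and 16.4, 15.4 and 16.4 CPM with Atractylodis, against 26.2, 27.3 and 25.4 CPM in vehicle libraries (−0.66 ± 0.05, edgeR adjusted p = 5.9e-07).

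Of 10 NRF2 targets 1 passed in treated against vehicle libraries: TXN, thioredoxin, named after its values were seen (0.25 ± 0.05, edgeR adjusted p = 0.0013). The Poria slope called 5 of the 10 and the Atractylodis slope 6 (5 and 4 with the GC correction), all higher. NQO1, a quinone reductase, had 150.1, 189.9 and 246.9 CPM with Poria and 165.0, 172.6 and 237.3 CPM with Atractylodis at rising dose, against 128.8, 129.8 and 130.2 CPM in vehicle libraries. Its slopes of 0.30 ± 0.02 (Poria, edgeR adjusted p = 7.7e-07) and 0.28 ± 0.02 (Atractylodis, adjusted p = 2.9e-06) compare with 0.10 ± 0.02 and 0.11 ± 0.02 for PSMD14. SLC7A11, the cystine transporter, rose by 0.31 ± 0.03 and 0.36 ± 0.03 per step, and TXNRD1, thioredoxin reductase, by 0.19 ± 0.03 and 0.10 ± 0.03. The Atractylodis call of TXNRD1 ended with the GC correction (0.08, edgeR adjusted p = 0.17).

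Of 12 ubiquitin and shuttle genes 2 rose and 5 fell. RPS27A, which encodes ubiquitin fused to a ribosomal protein, rose (267.7 to 304.8 CPM in treated and 190.9 to 229.4 CPM in vehicle libraries, log2 change 0.45 ± 0.06, edgeR adjusted p = 5.7e-05). SQSTM1, an autophagy receptor for ubiquitin, was the only gene of these lists called for the difference of the slopes (−0.22, edgeR adjusted p = 0.0038): it had 560.6, 503.1 and 469.6 CPM with Poria and 633.9, 598.7 and 824.1 CPM with Atractylodis, against 552.4, 556.6 and 552.4 CPM in vehicle libraries. Of 13 antigen presentation genes 1 rose (NLRC5, an activator of class I genes, 0.16 ± 0.05, edgeR adjusted p = 0.036) and 2 fell, among them TAPBP, the peptide-loading chaperone tapasin (−0.29 ± 0.04, edgeR adjusted p = 0.00016). HLA-C did not pass in that comparison (−0.08, edgeR adjusted p = 0.23) and fell with the Poria slope (−0.07 ± 0.02, adjusted p = 0.014), a call that ended with the GC correction (−0.02, adjusted p = 0.54).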

How the data were processed

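The authors deposited RSEM expected counts per gene in 1 table; 270 of its 279 columns are not mapped to these 9 samples and were not used. Per the labels' protocols, RNA went into a strand-keeping mRNA kit and was sequenced as paired reads. Per the submitters' processing notes, FastQC 0.11.9, Trim Galore 0.6.5, STAR 2.7.3a and RSEM 1.3.3 were used with hg38; the annotation release is not given in the sources used here. Expected counts were rounded to whole numbers. Symbols, positions and transcript lengths came from GENCODE 29.

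Genes were kept by filterByExpr over the 7 groups (count minimum 10, total minimum 15) and tested with edgeR 4.0.16 in R 4.3.3 (TMM scaling, robust quasi-likelihood test, Benjamini-Hochberg adjustment over 18356 genes, threshold 0.05). Treated against vehicle left 7 residual degrees of freedom and the slopes 6. The common biological coefficient of variation was 5.49% and 4.97%. CPM is the count scaled by library total times TMM factor. Each SE was taken as |log2 change|/sqrt(F). The GC and length correction used spline curves (natural, 5 degrees of freedom) per library, estimated on genes averaging 1 or more in log2 CPM, as offsets. The fit was also run on simulated counts with the same spread for every gene and no shift linked to GC content. These data differ in both respects, so that run does not vouch for the calls given here. Alternatives were RLE scaling, library totals, DESeq2 1.42.0, no filter, the GC correction, leaving out each library, slopes within the treated doses, dose in µg/mL and a fit with 7 groups.

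Values were given for the called members with the smallest p in each role (up to 4 for treated against vehicle, up to 3 for the slopes), for members called for the difference, for PSMB5 to PSMB10, PSMD14, PSME1 and PSME2, and for up to 3 called genes of each other list with POMP, NFE2L1 and NQO1. PSMB2, PSMD2, PSME3, SQSTM1 and the members listed with single log2 changes are named beyond that rule, after their values were seen. The members and lists were chosen with earlier results of these data known. No protein sequence was used. Some called genes of the other lists are not reported here.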

Additional observations from a re-analysis of the deposited data

How the results depend on the processing

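No paired analysis was possible because all treated libraries carry replicate number 2 while the vehicle libraries carry 1 to 3, so no treated condition shares more than 1 number with vehicle. In treated against vehicle libraries 19 members were called. Leaving out a library gave 11 to 22 (11 without vehicle replicate 1, 12 without replicate 3), and the fit with 7 groups, whose spread comes from the vehicle libraries only, gave 29. The calls over all genes tested moved the same way. They numbered 4639 at first, 2986 without vehicle replicate 1, 3118 without replicate 3 and 7254 with 7 groups. The Poria slope called 12, between 7 (without vehicle replicate 3) and 18 (without Atractylodis at 20 µg/mL) when a library was left out, 0 within the treated doses, 1 within them with the GC correction, and 0 with dose in µg/mL. Over all genes tested it called 3815, with 2723 and 4242 when those libraries were left out and 125 with dose in µg/mL. The Atractylodis slope called 17, between 2 (without Atractylodis at 500 µg/mL) and 17 when a library was left out, with 10 without vehicle replicate 1 or 3 and 11 without Atractylodis at 100 µg/mL. It called 5 within the treated doses, 1 with the GC correction added, and 0 with dose in µg/mL. Over all genes tested it called 3495, with 1035 without Atractylodis at 500 µg/mL and 2112 without 100 µg/mL. Those calls numbered 2106 and 2171 without vehicle replicate 1 or 3, and 67 with dose in µg/mL. The difference of the slopes called 0, and 1 without the filter (all genes tested: 213, and 555 without the filter). In the Poria slope within the treated doses with the GC correction, PSMC4 (0.002) and PSMC6 (−0.001) changed sign. With library totals the share of called members that were higher was 88.2% for Poria, against 66.7% with TMM, and 94.1% for Atractylodis, against 82.4%; over all genes tested it was 74.1%, against 44.1%, and 71.4%, against 44.6%. The cause of these shifts was not tested. Whether the number of libraries or counting error limits precision was not tested.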
